A study of Mus musculus with 8 samples.

Results

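The segments of the T cell receptor (TCR) beta locus were followed in RNA of cultures that mixed mouse spleen cells with colon cancer cells. Members were chosen by symbol, as all rows of the gene tables that start with Trbv, Trbd, Trbj or Trbc, and selected on their measured level, which had to be above 0 TPM (a level per transcript length, scaled to the same total in each library) in at least 1 library, summed per gene ID. This rule gave 39 of the 53 segments of the locus, out of 52636 gene IDs in all. They are 21 of 35 variable segments (Trbv), both diversity segments (Trbd), all 7 joining segments of the first cluster (Trbj1), all 7 of the second (Trbj2) and both constant segments (Trbc1 and Trbc2). The other 14 segments were listed at 0 in every library. Of these, 12 are annotated as V pseudogenes and 2, Trbv21 and Trbv23, as V genes. The member just inside the rule was Trbv13-1, at 4.37 TPM in 1 library and at 0 in the other 7. All 39 members have the same start and end on chromosome 6 in the GENCODE M21 annotation of GRCm38, with a gene type of the TCR family.

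The trogocytic group held 4 libraries, each from C57BL/6 splenocytes kept with trogocytic cancer cells, and the non-trogocytic group held 4 libraries from the same kind of culture with non-trogocytic cancer cells, which the labels call the control. Trogocytosis is the uptake of membrane fragments, with their proteins, from a neighbouring cell. In both groups the cancer cells were liver metastases of organoids that carried a tdTomato reporter and had been injected into the spleen, and they were sorted by their tdTomato and CD4 protein. In both groups they were kept for 5 days at 1 cancer cell to 50 splenocytes, and the splenocytes came from syngeneic mice with an Actin-GFP reporter. RNA was taken from the whole culture, so every level sums over all cells in it, and fewer T cells cannot be told apart from less TCR RNA per T cell. The labels do not say whether replicates came from separate animals or sorts, so every p-value is set against the spread of these libraries alone, which may be technical, and the labels name no batch.

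A T cell builds its beta chain gene by cutting and joining DNA. A D segment is joined to a J segment, then a V segment is joined to that pair, and the transcript is spliced from the J segment to the constant segment behind it. The locus is laid out as a row of V segments, then Trbd1, the Trbj1 segments and Trbc1, then Trbd2, the Trbj2 segments and Trbc2, with Trbv31 behind Trbc2 on the other strand. Joins that use a Trbj1 segment are therefore read through Trbc1 and joins that use a Trbj2 segment through Trbc2. The locus can also be transcribed without a complete join, and such RNA holds J and C sequence without a V. At the cell surface the beta chain pairs with an alpha chain, whose constant segment is Trac, and with the CD3 proteins, among them Cd3e.

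The levels turn on a few J segments and on the pair of constant segments, so these are shown first. The sequences are those of GENCODE M21 transcripts (GRCm38), in the direction of the gene's strand. In the J segments, capitals mark TTNGG followed after 4 bases by GG, which span the phenylalanine-glycine motif that most J segments share. Trbj1-4 and Trbj1-6 carried most of the Trbj1 signal in every library. Trbj1-5 lies between them and Trbj1-7 starts 35 bases behind Trbj1-6. Trbj2-1 and Trbj2-7 were the highest Trbj2 segments by mean, and Trbj2-6 is annotated as a pseudogene.
Trbj1-4, chr6:41534811-41534861: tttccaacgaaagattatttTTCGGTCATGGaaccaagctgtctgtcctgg
Trbj1-5, chr6:41535084-41535133: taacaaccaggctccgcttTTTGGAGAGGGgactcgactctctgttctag
Trbj1-6, chr6:41535554-41535606: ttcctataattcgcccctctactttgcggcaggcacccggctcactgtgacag
Trbj1-7, chr6:41535642-41535687: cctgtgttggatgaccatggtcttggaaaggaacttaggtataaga
Trbj2-1, chr6:41542754-41542803: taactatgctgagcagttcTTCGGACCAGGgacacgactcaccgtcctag
Trbj2-6, chr6:41543598-41543645: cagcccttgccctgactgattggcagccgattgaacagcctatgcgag
Trbj2-7, chr6:41543810-41543856: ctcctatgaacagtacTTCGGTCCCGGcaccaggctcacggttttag
The motif was found in 11 of the 14 Trbj segments, or 78.57%, on either strand, and in 46 of 60 joining segments of the TCR alpha locus, or 76.67%. It was in 1.876% of 55377 windows of 50 bases, each from the middle of 1 transcript of a gene. The segments without these letters were Trbj1-6, Trbj1-7 and Trbj2-6. A match is only a description of the letters. The most similar pair of J segments, Trbj2-4 and Trbj2-5, had 69.4% of bases in common, and no J segment was contained in another TCR gene.

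The constant segments are near copies. Trbc1 lies at chr6:41538218-41539881 and Trbc2 at chr6:41546730-41548352, both with 4 exons on the plus strand. Their first exons have 375 bases each and differ at 1 base, C260A, counted from 1 at the first base of the exon with the Trbc1 base named before the position. The windows below hold that base in capitals.
Trbc1, chr6:41538465-41538489: gcacaatcctcgCaaccacttccgc
Trbc2, chr6:41546977-41547001: gcacaatcctcgAaaccacttccgc
The second exons differ at 3 of 18 bases and the third at 15 of 107. Of all windows of 100 bases, the read length, 183 of 638 in Trbc1 (28.7%) and 183 of 593 in Trbc2 (30.9%) are identical between the copies. The authors' counting could split such reads either way, so the levels of Trbc1 and Trbc2 are uncertain. The error in 1 copy scales with the reads of the other, so it can exceed that share where the copies differ in level. In non-trogocytic replicate 4, Trbc1 stood at 209 TPM and Trbc2 at 26.3 TPM. The range of Trbc2 and the shares of the constant segments given below carry this uncertainty, and its size was not tested. No V member shares a window of this length with another TCR gene. The D and J members are shorter than such a window, so each was compared whole, and none was contained in another TCR gene.

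Sequencing depth was 1.39 to 1.84 Gb of aligned bases per library, in which 10867 to 12362 genes reached 1 TPM. Genes with at least 1 TPM in 4 or more libraries were tested with limma on log2(TPM + 1), and p-values were adjusted over all 11433 of them. Of the 39 members, 28 passed this filter. The 11 that did not (9 V segments, Trbj1-7 and Trbj2-2) were above 0 in at most 3 libraries and reached at most 14.004 TPM.

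Trbc1 was high in every library. Its level was 249.8, 289, 216 and 274 TPM in the trogocytic libraries 1 to 4, against 161, 217, 149.7 and 209 TPM in the non-trogocytic libraries 1 to 4. The groups overlap by the lowest trogocytic and the highest non-trogocytic library. The means were 258 ± 31.9 TPM in trogocytic and 184 ± 33.7 TPM in non-trogocytic libraries (SD, n = 4 each), with a log2 fold change of 0.49 ± 0.19 (SE) that did not pass (limma adjusted p = 0.9998).

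Trbc2 varied far more. It stood at 225, 83.8, 93.6 and 188 TPM in the trogocytic libraries, against 176, 79.5, 47.1 and 26.3 TPM in the non-trogocytic ones. The highest levels were in trogocytic replicates 1 and 4 and non-trogocytic replicate 1, the lowest in non-trogocytic replicate 4, and the groups overlap widely. The log2 fold change was 1.05 ± 0.54 (SE) and did not pass (limma adjusted p = 0.9998), and it was 0.63 without non-trogocytic replicate 4. Over all 8 libraries the highest value was 1.93 times the lowest for Trbc1 and 8.58 times the lowest for Trbc2.

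Trac and Cd3e, which stand for the alpha chain and the CD3 proteins, also varied widely. Trac stood at 321, 52.1, 33.5 and 202 TPM in the trogocytic libraries, against 121, 68.1, 59.6 and 18.0 TPM in the non-trogocytic ones. Cd3e stood at 32.3, 18.1, 8.71 and 42.6 TPM in the trogocytic libraries, against 51.9, 19.9, 21.1 and 1.47 TPM in the non-trogocytic ones. Neither passed the test (log2 fold change 0.91 ± 0.74 for Trac and 0.54 ± 0.85 for Cd3e, SE; limma adjusted p = 0.9998 for both). Without trogocytic replicate 1 or 4, or non-trogocytic replicate 4, the log2 fold change of Trac was 0.37, 0.59 and 0.39, and without trogocytic replicate 3 it was 1.44. That of Cd3e was 0.36 and 0.23 without trogocytic replicates 1 and 4, 0.95 without trogocytic replicate 3 and 1.12 without non-trogocytic replicate 1. The direction of Cd3e rests on non-trogocytic replicate 4, without which its log2 fold change was -0.35.

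**Figure D1:**
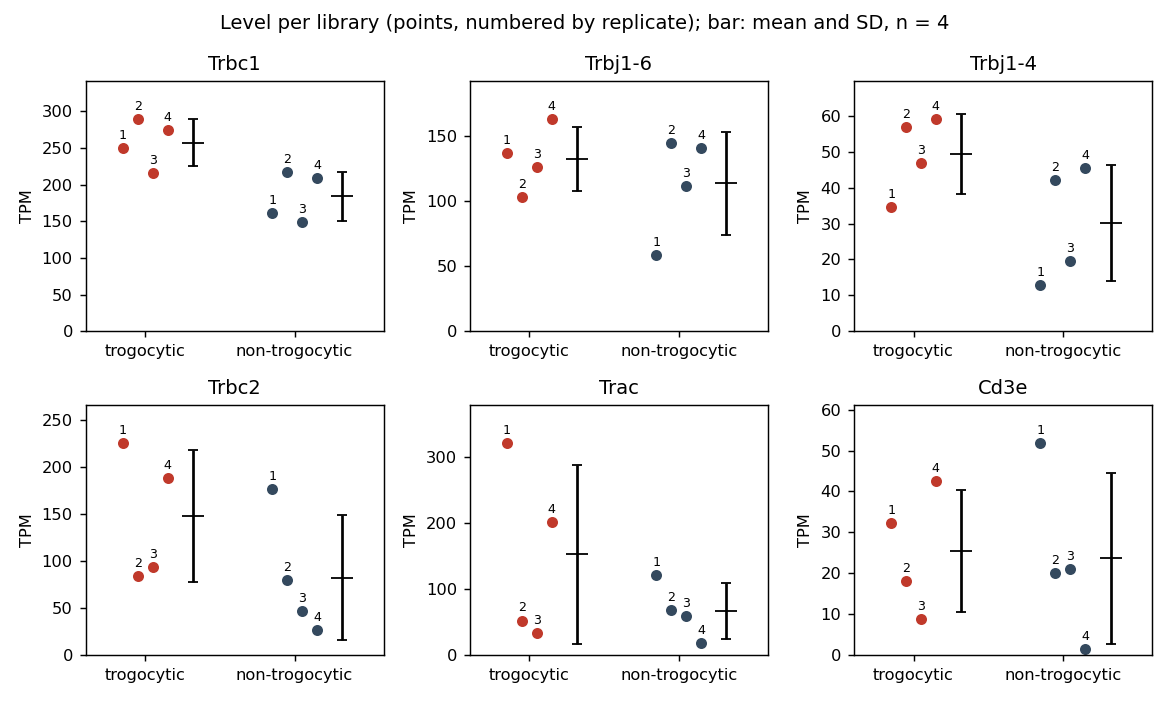
Level in TPM (vertical axis, linear, from 0) of Trbc1, Trbj1-6, Trbj1-4, Trbc2, Trac and Cd3e in each library. Points are libraries numbered by replicate, trogocytic left and non-trogocytic right, and bars give the mean and SD of 4. Trbc1 stays between 149.7 and 289 TPM, while Trbc2, Trac and Cd3e are lowest in non-trogocytic replicate 4.

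The coefficient of variation (SD over mean) across the 8 libraries was 22.4% for Trbc1 and 26.1% for Trbj1-6. It was 41.5% for Trbj1-4, 62.8% for Trbc2, 68.8% for Cd3e, 94.7% for Trac and 96.3% for Trbv13-2. Among 2198 tested genes that averaged 50 to 500 TPM the median was 25.4% (quartiles 18.8% and 35.0%), so Trbc1 and Trbj1-6 lay near the middle of genes of like level and Trbc2 and Trac above the upper quartile. Stability of Trbc1 was part of the choice of these segments and is given as a description.

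Most signal of the first J cluster came from Trbj1-6 and Trbj1-4. Trbj1-6 stood at 137, 103, 126 and 163 TPM in the trogocytic libraries, against 58.8, 145, 112 and 141 TPM in the non-trogocytic ones. All but non-trogocytic replicate 1 were above 100 TPM, and the groups overlap (log2 fold change 0.28 ± 0.30, SE; limma adjusted p = 0.9998). Without non-trogocytic replicate 1 the log2 fold change was -0.0084. Trbj1-4 stood at 34.7, 56.9, 46.9 and 59.1 TPM in the trogocytic libraries, against 12.97, 42.1, 19.6 and 45.5 TPM in the non-trogocytic ones. Its lowest value was also in non-trogocytic replicate 1 and the groups overlap (log2 fold change 0.84 ± 0.41, SE; limma adjusted p = 0.9998). Without non-trogocytic replicate 1 its log2 fold change was 0.51. These levels rest on an estimated 10.96 to 103 reads per library, taken as coverage times length divided by the segment length. A J segment is shorter than a read, so a read that crosses a join or a splice matches it only in part.

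Together Trbj1-4 and Trbj1-6 made up 84.3% to 94.7% of the Trbj1 sum in trogocytic libraries and 56.9% to 97.0% in non-trogocytic ones. The lowest share was again in non-trogocytic replicate 1, and the other 3 non-trogocytic libraries lay at 93.1% or above. Of the signal of all J segments they held 55.1% to 72.4% in trogocytic libraries and 31.4% to 92.3% in non-trogocytic ones. The Trbj1 sum was 0.584 to 0.918 of the Trbc1 level in trogocytic libraries and 0.782 to 0.943 in non-trogocytic ones. Trbj1-6 alone was 0.356 to 0.594 of the Trbc1 level in trogocytic libraries and 0.364 to 0.746 in non-trogocytic ones.

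The other Trbj1 segments were low. Trbj1-1 stood at 10.7, 1.20, 3.65 and 10.2 TPM in the trogocytic libraries, against 27.5, 0, 2.19 and 1.35 TPM in the non-trogocytic ones. Trbj1-2 was listed above 0 in 1 trogocytic library, at 6.18 TPM, and in all 4 non-trogocytic libraries, at 16.3, 0.554, 1.17 and 4.31 TPM. Both were highest in non-trogocytic replicate 1, the library in which Trbj1-4 and Trbj1-6 were lowest. Trbj1-3 stood at 13.8, 7.71, 6.35 and 8.59 TPM in the trogocytic libraries, against 9.51 TPM in non-trogocytic replicate 1 and 0 in the other 3. Its log2 fold change of 2.44 ± 0.76 (SE) had a limma p of 0.0090 and did not pass after adjustment (adjusted p = 0.9388). In all 4 trogocytic libraries Trbj1-3 was above the 3 non-trogocytic libraries at 0, on an estimated 4.06 to 7.72 reads each.

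Trbj1-5 and Trbj1-7, the neighbours of Trbj1-6 on either side, did not share its level. Trbj1-5 stood at 1.51, 0, 15.2 and 6.99 TPM in the trogocytic libraries, against 1.11, 0, 1.49 and 0 TPM in the non-trogocytic ones. Trbj1-7 was at 0 in all 4 trogocytic libraries and in non-trogocytic replicates 1 and 4, with 5.74 TPM in non-trogocytic replicate 2 and 4.96 TPM in replicate 3. Trbj1-6 lies 420 bases behind Trbj1-5, and Trbj1-7 lies 2530 bases before Trbc1, so high signal was not spread evenly over the stretch between Trbj1-4 and Trbc1.

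**Figure D2:**
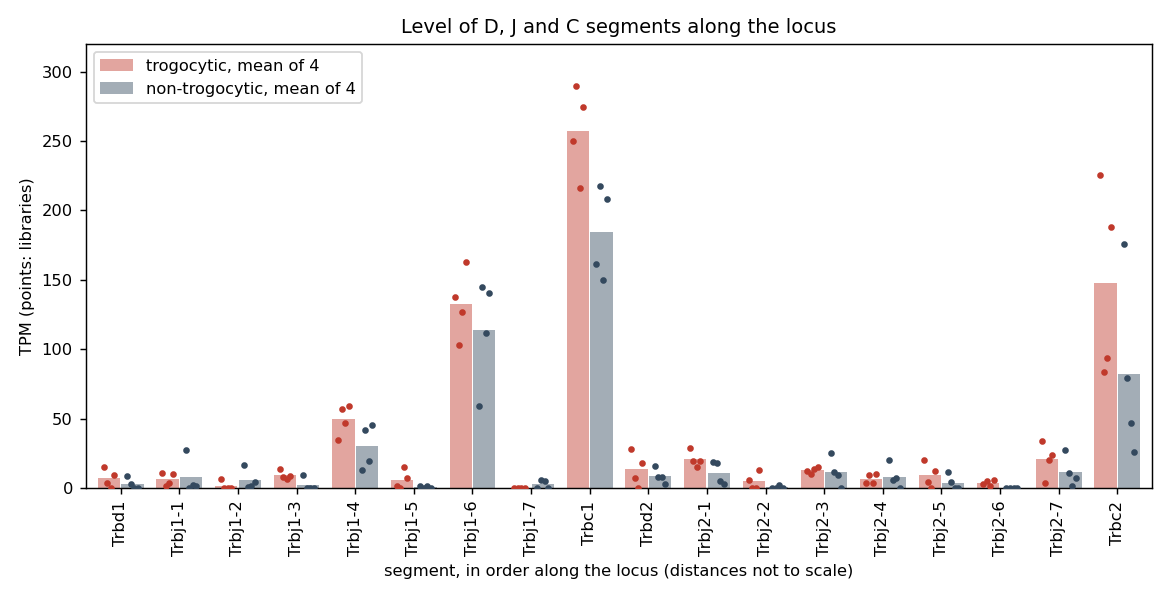
Level in TPM (vertical axis, linear, from 0) of the D, J and C segments in their order along the locus (horizontal axis, distances not to scale). Bars are means of 4 libraries, trogocytic left and non-trogocytic right, and points are libraries. Trbj1-4 and Trbj1-6 stand out among the J segments in both groups, with Trbj1-5 and Trbj1-7 low beside them.

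The Trbj2 segments had no such pair and varied with the library. Trbj2-1 stood at 29.0, 19.2, 15.3 and 19.1 TPM in the trogocytic libraries, against 18.7, 18.1, 4.84 and 2.88 TPM in the non-trogocytic ones. Trbj2-7 stood at 34.1, 3.79, 20.3 and 24.0 TPM in the trogocytic libraries, against 27.02, 10.7, 1.20 and 7.03 TPM in the non-trogocytic ones. Both were above 0 in every library, and for both the groups overlap.
Trbj2-3 stood at 12.2, 10.1, 13.3 and 15.4 TPM in the trogocytic libraries, against 24.996, 11.4, 9.37 and 0 TPM in the non-trogocytic ones. Trbj2-4 stood at 3.68, 9.32, 3.51 and 9.88 TPM in the trogocytic libraries, against 20.045, 5.68, 6.96 and 0 TPM in the non-trogocytic ones. Both were highest in non-trogocytic replicate 1 and listed at 0 in non-trogocytic replicate 4, as Cd3e was highest and lowest in these libraries. Trbj2-5 stood at 19.99, 4.62, 0 and 12.01 TPM in the trogocytic libraries, against 11.2, 4.00, 0 and 0 TPM in the non-trogocytic ones. Trbj2-2 was above 0 in trogocytic replicates 1 and 4, at 6.02 and 12.9 TPM, and in non-trogocytic replicate 3, at 2.42 TPM.

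Trbj2-6, the pseudogene, stood at 3.07, 5.02, 1.54 and 5.77 TPM in the trogocytic libraries and was listed at 0 in all 4 non-trogocytic ones. Since only the trogocytic libraries brought it past the filter of 1 TPM in 4 libraries, it had to differ once it was tested, and nothing is read from its groups not overlapping (1 of 28 members, with 2.68% of all genes tested not overlapping in either direction and 1.37% not overlapping and higher in trogocytic libraries). The limma adjusted p was 0.2542, so it did not pass even so. These levels rest on an estimated 1.02 to 3.75 reads per library, and a level of this size is at the limit of what these libraries show.

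The Trbj2 sum was 108, 52.0, 54.0 and 99.1 TPM in the trogocytic libraries, against 102, 49.8, 24.8 and 9.90 TPM in the non-trogocytic ones. Set against Trbc2 it was 0.479 to 0.621 in trogocytic and 0.377 to 0.626 in non-trogocytic libraries, a narrower range than that of either level. The Trbj1 sum was 204, 169, 199 and 248 TPM in the trogocytic libraries, against 126, 193, 141 and 192 TPM in the non-trogocytic ones. Among the J segments the Trbj1 share was 65.4%, 76.5%, 78.6% and 71.4% in the trogocytic libraries, against 55.3%, 79.5%, 85.1% and 95.1% in the non-trogocytic ones. The share of Trbc1 in the sum of both constant segments was 52.6%, 77.5%, 69.8% and 59.3% in the trogocytic libraries, against 47.8%, 73.2%, 76.1% and 88.8% in the non-trogocytic ones. Both shares were lowest in non-trogocytic replicate 1 and highest in non-trogocytic replicate 4, so the non-trogocytic libraries span the whole range. The means were 64.8% ± 11.1 in trogocytic and 71.5% ± 17.2 in non-trogocytic libraries for Trbc1, and 73.0% ± 5.88 and 78.7% ± 16.9 for Trbj1 in the same order (SD, n = 4 each), with differences of -6.67 and -5.76 percentage points (trogocytic minus non-trogocytic), both below the pooled SD of 14.5 and 12.7. Single libraries move them far, to -14.6 and -13.6 without non-trogocytic replicate 1, which is past that spread, and to -0.89 and -0.31 without non-trogocytic replicate 4. For Trbc1 the difference was also -2.58 without trogocytic replicate 1 and -10.9 without trogocytic replicate 2, and for Trbj1 it was -3.23 without trogocytic replicate 1 and -3.65 without non-trogocytic replicate 3.

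The diversity segments have 12 and 14 bases, far fewer than a read. Their sequences are shown because of this length.
Trbd1, chr6:41533201-41533212: gggacagggggc
Trbd2, chr6:41542163-41542176: gggactgggggggc
Trbd1 stood at 15.3, 3.35, 0 and 9.23 TPM in the trogocytic libraries, against 8.48, 2.56, 0 and 0 TPM in the non-trogocytic ones. Trbd2 stood at 28.4, 7.36, 0 and 17.7 TPM in the trogocytic libraries, against 15.6, 8.09, 7.85 and 3.04 TPM in the non-trogocytic ones. Both were highest in trogocytic replicate 1 and at 0 in trogocytic replicate 3, and neither passed the test (limma adjusted p = 0.9998).

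No V segment was found in every library. Of the 168 values (21 V members in 8 libraries) 76 were above 0, and 54.8% were listed at 0. The most widely found V segment was above 0 in 7 libraries, and 6 V segments were above 0 in 5 or more. Of the 21, 18 were above 0 in both groups, none in the trogocytic group alone, and 3 (Trbv5, Trbv13-1 and the pseudogene Trbv24) in the non-trogocytic group alone. These 3 were in at most 2 libraries each. Values above 0 rest on a median of 18.5 estimated reads (2.41 to 104), so a V segment listed at 0 may be present below the reach of this depth. Reads across a V-D-J join match the reference only in part, which may lower all V levels, and the size of this was not tested.

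Trbv13-2, a V segment in wide use in C57BL/6 mice, was the highest by mean. It stood at 52.6, 6.75, 23.3 and 33.4 TPM in the trogocytic libraries, against 17.6, 9.64, 3.65 and 0 TPM in the non-trogocytic ones. It led the V segments in all 4 trogocytic libraries and in no non-trogocytic library, where Trbv3, Trbv12-2, Trbv12-1 and Trbv15 led in replicates 1 to 4. The groups overlap, and the log2 fold change of 2.14 ± 0.89 (SE) did not pass (limma adjusted p = 0.9998) and was 1.32 without non-trogocytic replicate 4. Its close relatives are Trbv13-3, with 90.6% of bases in common over 340 aligned bases, and Trbv13-1, with 88.7%, but no window of 100 bases is identical between them. The last 36 bases of the leading V segments, read from the transcript, are shown with TGTGC, any base and AGCAG in capitals where present. These letters hold the conserved cysteine codon (tgt) at which the join begins. A segment without capitals can hold that codon too. Trbv13-2, Trbv12-2 and Trbv12-1 have tgtgccagc and depart from the letters only after it.
Trbv13-2, gene at chr6:41121396-41121832: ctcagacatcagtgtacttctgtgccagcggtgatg
Trbv3, gene at chr6:41048290-41048828: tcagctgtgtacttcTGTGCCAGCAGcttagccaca
Trbv12-2, gene at chr6:41118851-41119364: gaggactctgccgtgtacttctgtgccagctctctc
Trbv12-1, gene at chr6:41113550-41114067: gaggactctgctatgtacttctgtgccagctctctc
Trbv15, gene at chr6:41141188-41141658: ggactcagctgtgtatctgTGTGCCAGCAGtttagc
These letters end 14 of the 21 V members (66.67%) and were in 0.007223% of 55377 transcript windows of the same length on either strand.

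Other V segments came and went with the library. Trbv2 stood at 10.1, 0, 12.9 and 5.25 TPM in the trogocytic libraries, against 3.71 TPM in non-trogocytic replicate 2 and 0 in the other 3 (log2 fold change 1.92 ± 0.86, SE; limma adjusted p = 0.9998). Trbv3 stood at 28.4, 5.93, 0 and 0 TPM in the trogocytic libraries, against 21.8, 4.24, 2.98 and 0 TPM in the non-trogocytic ones. Trbv12-2 was above 0 in all 4 trogocytic libraries, at 10.2, 5.49, 11.7 and 6.50 TPM, against 5.64, 10.9, 0 and 0 TPM in the non-trogocytic ones. For each of these the groups overlap. Trbv20 stood at 31.4, 0, 11.5 and 8.47 TPM in the trogocytic libraries, against 0, 3.78, 4.65 and 1.59 TPM in the non-trogocytic ones. Trbv15 stood at 0, 4.13, 2.41 and 26.1 TPM in the trogocytic libraries, against 5.72, 3.57, 0 and 1.66 TPM in the non-trogocytic ones. Trbv20 and Trbv15 were the V segments still found in non-trogocytic replicate 4, where all other V members were at 0.
Trbv4 was found in 1 trogocytic library, at 17.4 TPM, and in 3 non-trogocytic ones, at 13.04, 8.30 and 5.65 TPM. It and Trbv5 overlap a long noncoding gene on the same strand, 5830405F06Rik, which was above 0 in the same 4 libraries as Trbv4. That gene stood at 0.0703 TPM in trogocytic replicate 4 and at 0.961, 0.766 and 0.0922 TPM in non-trogocytic replicates 1 to 3. Trbv5 was found only in non-trogocytic replicate 1, where the noncoding gene was highest. Which of the overlapping genes the reads came from was not tested. Trbv12-1 stood at 8.48, 0, 4.43 and 10.9 TPM in the trogocytic libraries, against 14.7 TPM in non-trogocytic replicate 3 alone. Trbv16 was found in trogocytic replicates 1 and 4, at 14.7 and 11.4 TPM, and in non-trogocytic replicates 2 and 3, at 7.88 and 6.36 TPM.
Trbv13-3 was found in trogocytic replicates 3 and 4, at 20.5 and 4.52 TPM, and in non-trogocytic replicates 1 and 3, at 7.38 and 2.28 TPM. Trbv19 stood at 5.22, 0, 0 and 6.76 TPM in the trogocytic libraries, against 6.72, 0.781, 4.36 and 0 TPM in the non-trogocytic ones. Trbv17 was found in trogocytic replicates 1 and 2, at 13.5 and 3.08 TPM, and in non-trogocytic replicate 2, at 1.76 TPM, and was not tested. The remaining 9 V members reached at most 14.004 TPM in any library. None of the 12 tested V segments passed.

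**Figure D3:**
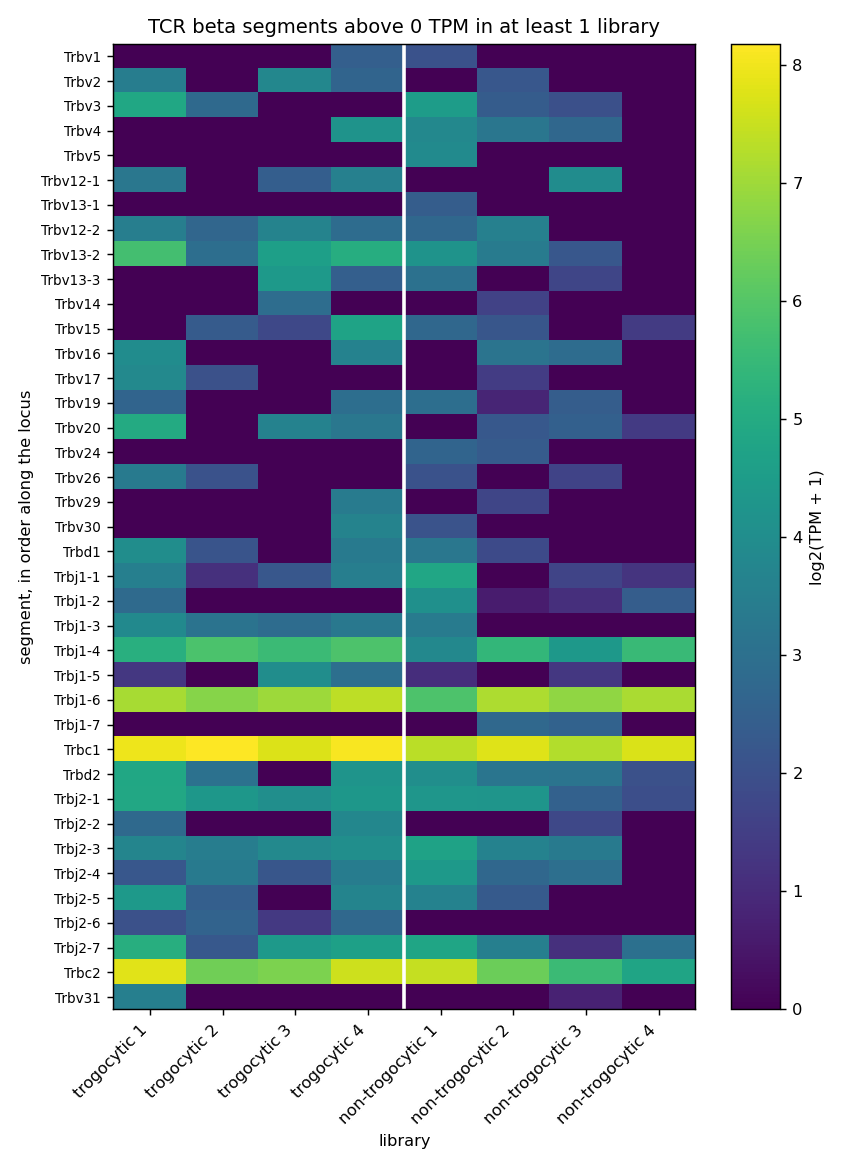
Level of the 39 members as log2(TPM + 1) (colour scale), with segments in their order along the locus down the page and the 4 trogocytic libraries left of the 4 non-trogocytic ones. Trbc1, Trbc2, Trbj1-4 and Trbj1-6 are above 0 in every library, while 54.8% of V values are 0.

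The number of V segments above 0 was 11, 6, 8 and 13 in the trogocytic libraries, against 13, 13, 10 and 2 in the non-trogocytic ones. The summed V level was 194, 28.6, 93.3 and 156 TPM in the trogocytic libraries, against 111, 62.9, 47.5 and 3.25 TPM in the non-trogocytic ones. The means were 118 ± 72.8 and 56.2 ± 44.5 TPM (trogocytic and non-trogocytic, SD, n = 4 each), and the groups overlap. The difference of 62.0 TPM was 36.6 TPM without trogocytic replicate 1. As a percentage of the constant segments the V sum was 40.9%, 7.66%, 30.1% and 33.8% in the trogocytic libraries, against 32.9%, 21.2%, 24.1% and 1.38% in the non-trogocytic ones. In non-trogocytic replicate 4 the V sum rested on an estimated 7.82 reads, while Trbc1 stood at 209 TPM and Trbj1-6 at 141 TPM. In trogocytic replicate 2, the library with the highest Trbc1, the V sum was the second lowest.

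**Figure D4:**
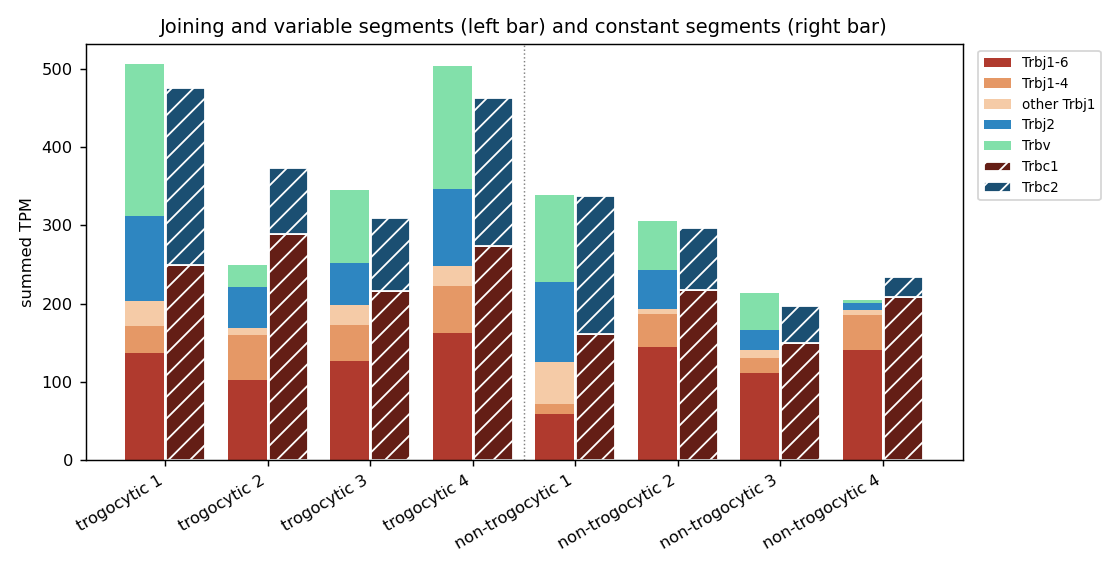
Summed level in TPM (vertical axis, linear, from 0) of Trbj1-6, Trbj1-4, the other Trbj1, the Trbj2 and the Trbv segments (left bar) and of Trbc1 and Trbc2 (right bar) in each library, the 4 trogocytic ones left. Non-trogocytic replicate 4 keeps 141 TPM of Trbj1-6 and 209 TPM of Trbc1 with 3.25 TPM of V segments and 9.90 TPM of Trbj2 segments.

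Which segments followed which constant segment was described by Pearson's r over the 8 libraries on log2(TPM + 1), with exact permutation p-values adjusted over 82 pairs (19 segments above 0 in at least 5 libraries against Trbc1, Trbc2, Trac and Cd3e, and the pairs among these 4). The question was posed with the pattern in view, the 8 libraries are shared by all pairs, and all pairs share the leukocyte content of a library. Trbc1 was little related to Trbc2 (r = 0.31, rho = 0.45, exact permutation p = 0.4531 and 0.2675), to Trac (r = 0.22, rho = 0.26, p = 0.5997 and 0.5364) or to Cd3e (r = -0.0011, rho = -0.0238, p = 0.9977 and 0.9768). Trbc2 was related to Trac (r = 0.89, rho = 0.79, exact permutation p = 0.0041 and 0.0279, adjusted 0.0460 and 0.1431) and to Cd3e (r = 0.83, rho = 0.67, exact permutation p = 0.0081 and 0.0831, adjusted 0.0460 and 0.2349). Without the 2 libraries farthest from the median of Trac or Cd3e, r was 0.72 (exact permutation p = 0.1069) and 0.57 (p = 0.2500), so both relations rest in part on those libraries.

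Of the 19 segments, 16 (84.2%) had a higher r to Trbc2 than to Trbc1, with 43.2% of 11431 tested genes on that side. The segments were chosen with this pattern known, so the count is a description and nothing is read from its distance to that share. The pattern is not particular to the segments. On the same side were all 9 tested macrophage and monocyte genes, all 4 erythroid and all 3 B cell genes, but only 1 of 12 colon epithelium genes. The median r of the segments was 0.28 to Trbc1, 0.65 to Trbc2, 0.58 to Trac and 0.57 to Cd3e. Over all tested genes the medians were 0.07, -0.04, -0.02 and -0.05 in the same order. The 3 segments with a higher r to Trbc1 were Trbj1-4, Trbj1-6 and Trbv15. With the group means taken out the count was also 16 of 19, and with levels set against Ptprc, the leukocyte surface protein CD45, it was 13 of 19.

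Trbj1-4 was the segment closest to Trbc1 (r = 0.87, rho = 0.74, exact permutation p = 0.0076 and 0.0458, adjusted 0.0460 and 0.1879), and ranked 23rd of 7905 genes by r. Without the 2 libraries farthest from the median of Trbc1, which narrows its range, r was 0.52 (exact permutation p = 0.3028). The relation thus rests in part on those libraries. With any 1 library left out r was 0.84 to 0.90, and with the group means taken out it was 0.79. None of these passed after adjustment. Its r to Trbc2, Trac and Cd3e was -0.10, -0.18 and -0.37. Trbj1-6 had r = 0.53 and rho = 0.33 to Trbc1 (exact permutation p = 0.1778 and 0.4279), which did not pass, and r = -0.28 without the 2 farthest libraries. Its r to Trbc2, Trac and Cd3e was -0.17, -0.02 and -0.34. Trbj1-6 shared with Trbc1 a high level in every library, but its ups and downs were not shown to follow those of Trbc1. Trbv15 had a slightly higher r to Trbc1 (0.40) than to Trbc2 (0.34).

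Among the V segments Trbv13-2 was closest to Trbc2 (r = 0.95, rho = 0.95, exact permutation p = 0.0005 and 0.0011, adjusted 0.0325 and 0.0407), and r was 0.86 without the 2 farthest libraries (p = 0.0361). It ranked 9th of 7905 genes by r to Trbc2. Trbv19 was related to Cd3e (r = 0.78, rho = 0.95, exact permutation p = 0.0012 and 0.0015, adjusted 0.0325 and 0.0407), with r = 0.84 without the 2 farthest libraries. Trbv12-2, Trbv3 and Trbv20 had r = 0.77, 0.50 and 0.32 to Trbc2, none past the adjusted threshold.

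Of the second cluster, Trbj2-1 was closest to Trbc2 (r = 0.90, rho = 0.81, exact permutation p = 0.0010 and 0.0218, adjusted 0.0325 and 0.1275), with r = 0.73 without the 2 farthest libraries (p = 0.0569). Trbj2-3 and Trbj2-5 also passed with Trbc2 (r = 0.80 and 0.86, exact permutation adjusted p = 0.0460 for both; rho = 0.81 and 0.85, adjusted p = 0.1275 and 0.0895). Trbj2-3 and Trbj2-4 passed with Cd3e (r = 0.90 for both, exact permutation adjusted p = 0.0460; rho = 0.69 and 0.79, adjusted p = 0.2032 and 0.1431), and Trbj2-5 with Trac (r = 0.88, adjusted p = 0.0460; rho = 0.88, adjusted p = 0.0854). The Cd3e relations of Trbj2-3 and Trbj2-4 fell to r = 0.26 and 0.45 without the 2 farthest libraries, which narrows the range of Cd3e. They thus rest at least in part on those. Trbj2-7 had r = 0.76 to Trbc2, which did not pass.

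Trbd1, which lies in front of the first J cluster, was related to Trbc2 (r = 0.87, rho = 0.85) and Trac (r = 0.89, rho = 0.88). The exact permutation adjusted p-values were 0.0460 for both r and 0.0895 and 0.0854 for rho. Trbd1 was at 0 in the same libraries as Trbj2-5 and had the same rho to Trbc1, Trbc2, Trac and Cd3e. Where above 0, they rest on an estimated 1.83 to 8.92 and 2.86 to 11.7 reads, and their pairs that passed are not separate observations. Of the first J cluster, Trbj1-3 also passed with Trbc2 (r = 0.84, exact permutation adjusted p = 0.0460, and rho = 0.93, adjusted p = 0.0549). Trbj1-1 had r = 0.72 to Trbc2 and -0.14 to Trbc1, and Trbj1-5 and Trbj1-2 had 0.40 and 0.15 to Trbc2. The difference between the r to Trbc1 and the r to Trbc2 was not tested for any segment, and Trbj1-7 was above 0 in too few libraries to be included. Trbd2 had r = 0.55 to Trbc2 and 0.82 to Trac (exact permutation adjusted p = 0.0548), with rho = 0.98 to Trac (adjusted p = 0.0325).

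In all, 15 of the 82 pairs passed after adjustment, 1 of them with Trbc1, and 26 had an unadjusted p below 0.05. By rho, 3 pairs passed (exact permutation adjusted p below 0.05), Trbv13-2 with Trbc2, Trbv19 with Cd3e and Trbd2 with Trac. Without the first replicates of both groups, the libraries richest in Ptprc, no pair passed and 10 had an unadjusted p below 0.05. No pair passed without trogocytic replicate 1, trogocytic replicate 4 or non-trogocytic replicate 4 alone, and 1, 3, 4 and 8 pairs passed without non-trogocytic replicate 1, trogocytic replicate 2, non-trogocytic replicate 2 and non-trogocytic replicate 3. Without the first replicates 15 of 19 segments had a higher r to Trbc2.

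**Figure D5:**
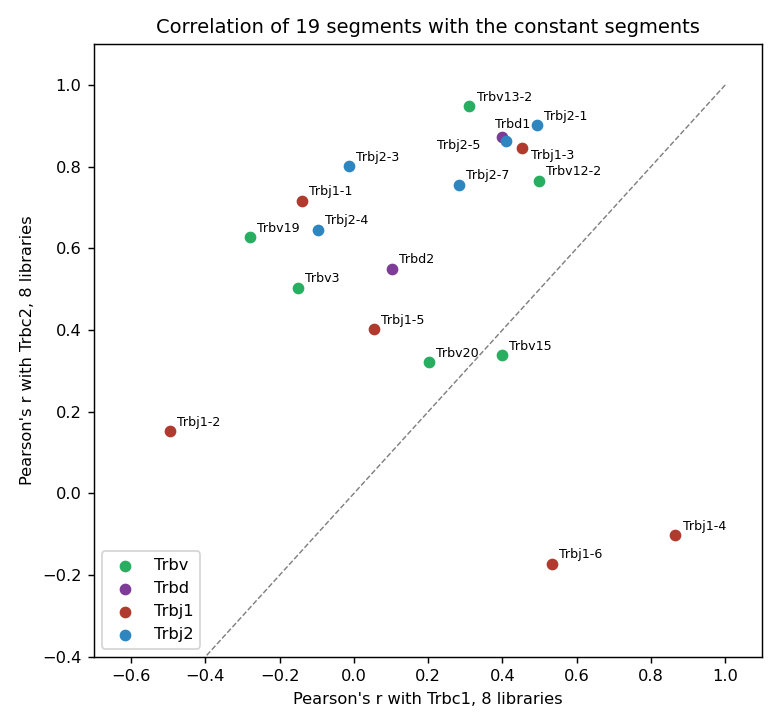
Pearson's r with Trbc2 (vertical axis) against r with Trbc1 (horizontal axis) over 8 libraries for the 19 segments above 0 in at least 5 libraries, coloured by class; the dashed line marks equal r. Trbj1-4 and Trbj1-6 lie apart at the lower right, and 16 of 19 segments lie above the line.

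Between the groups, no member passed the test. Of 28 tested members 0 were called by limma at an adjusted p below 0.05, with 0.0525% of all genes tested called (6 of 11433). At an unadjusted limma p below 0.05 there were 5 of 28 members (17.9%), all higher in trogocytic co-cultures (Trbj2-6, Trbj1-3, Trbc1, Trbv13-2 and Trbv2). Trbj2-6 passed the filter through the trogocytic libraries alone, so nothing is read from its place among them. Without it there were 4 of 27 members (14.8%). Among all genes tested 4.59% were at that level in either direction and 2.07% were higher in trogocytic co-cultures. Trbj1-3, still among these 4, was above 0 in only 1 non-trogocytic library, so the effect of the filter is not fully removed. The log2 fold change was above 0 for 23 of 28 members (82.1%) and for 22 of 27 without Trbj2-6 (81.5%), with 50.7% of all genes tested above 0. The median log2 fold change was 0.84 for members and 0.01 for all genes, and 0.84 for the 27 members above 0 in both groups. By class the median was 0.58 for V segments (9 of 12 above 0), 0.75 for Trbj1 (5 of 6), 1.06 for Trbj2 (6 of 6) and 0.77 for the constant segments (2 of 2). The Trbj2 count and median include Trbj2-6, so nothing is read from their height beside the other classes. The other tested Trbj2 segments had log2 fold changes of 0.27 (Trbj2-4) to 1.16 (Trbj2-5). All members are measured in the same 8 libraries, so they do not count as separate observations, and these counts and medians over the members that passed the filter are given as a description.

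Most genes of the T cell receptor complex outside the locus followed Trbc2 more closely than Trbc1. Of 9 tested genes of the CD3 complex and TCR signal list, 8 had a log2 fold change above 0 and none passed. The median r was 0.85 to Trbc2 and 0.20 to Trbc1. For 8 genes r was higher to Trbc2. For 1, Cd247, it was higher to Trbc1 (0.76, with 0.48 to Trbc2). Cd3d, a CD3 subunit, stood at 169.7, 91.4, 90.6 and 134 TPM in the trogocytic libraries, against 245, 40.6, 64.2 and 13.6 TPM in the non-trogocytic ones. Cd3g, another subunit, stood at 274, 72.9, 66.3 and 125 TPM in the trogocytic libraries, against 110.4, 48.6, 50.1 and 22.1 TPM in the non-trogocytic ones. Cd247, the signalling zeta chain, stood at 29.4, 13.1, 6.39 and 14.8 TPM in the trogocytic libraries, against 5.89, 8.44, 4.82 and 9.74 TPM in the non-trogocytic ones. Non-trogocytic replicate 4 was lowest for Cd3d and Cd3g but not for Cd247, and for all 3 the groups overlap.
Of 14 tested pan T cell markers, 13 had a log2 fold change above 0 and 13 a higher r to Trbc2, and none passed. The highest by mean, the interleukin receptor Il7r and the adhesion receptor Cd2, had r = 0.86 and 0.92 to Trbc2 and -0.09 and 0.11 to Trbc1. Cd4, the helper T cell marker on which the cancer cells were sorted, reached at most 1.46 TPM, while Cd8b1, a chain of the CD8 coreceptor, was at 17.3 to 94.7 TPM in trogocytic libraries and 4.45 to 60.2 TPM in non-trogocytic ones. Cd8a, the other CD8 chain, was far lower, at 7.24, 0, 4.596 and 3.66 TPM in the trogocytic libraries, against 0.202, 7.84, 0.171 and 2.13 TPM in the non-trogocytic ones, with r = 0.25 to Trbc2 where Cd8b1 had 0.93. Of other TCR constant segments, Trdc, the delta chain, reached 10.1 TPM and had r = 0.15 to Trbc1 and 0.10 to Trbc2.

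Of 13 genes listed for TCR beta rearrangement, 4 that are used in developing lymphocytes (Rag1, Rag2, Dntt and Ptcra) were at 0 in every library. The 9 tested ones are general repair and chromatin genes, such as Hmgb1 at 838 to 1212 TPM and Hmgb2 at 243 to 411 TPM over all libraries, none of which passed. Genes beside or within the locus gave almost no signal. Of 13, 8 were at 0 in all libraries and none was tested, and their sum reached 1.80 TPM in trogocytic and 5.11 TPM in non-trogocytic libraries, from Prss2 and Try5, both trypsinogens.

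Markers of other cells moved with the constant segments to different degrees. All 3 tested B cell genes, among them Cd79b and Ms4a1, had a higher r to Trbc2 (median 0.76) than to Trbc1 (median 0.04), and their list summed to 54.6 to 269 TPM in trogocytic and 32.1 to 234 TPM in non-trogocytic libraries. All 4 tested erythroid genes, among them Hba-a1 and Hba-a2, did too (median 0.84 and 0.20), with sums of 28.2 to 159 TPM in trogocytic and 10.6 to 105 TPM in non-trogocytic libraries. So did 4 of 6 natural killer and innate lymphoid genes (sums of 135 to 430 TPM in trogocytic and 172 to 741 TPM in non-trogocytic libraries, with Ncr1 and Il1rl1 at 0 throughout and Tyrobp and Nkg7 the highest). The list of neutrophils did so for 4 of 5 genes (sums of 513 to 917 TPM in trogocytic and 418 to 1066 TPM in non-trogocytic libraries, with S100a8 and Ly6g the highest and Csf3r at 0 throughout). The exception was Ly6g, with r = -0.51 to Trbc2 and -0.39 to Trbc1.
All 9 tested macrophage and monocyte genes, led by Lyz2 and Cd68, had a log2 fold change below 0 and none passed. Their median r was 0.20 to Trbc2 and -0.43 to Trbc1, and the list summed to 1619 to 5148 TPM in trogocytic and 3268 to 14351 TPM in non-trogocytic libraries. Of 12 tested genes of colon epithelium, led by Krt18 and Krt8, 11 had a higher r to Trbc1 than to Trbc2 (median 0.23 and -0.40). This list summed to 5228 to 6378 TPM in trogocytic and 3308 to 8541 TPM in non-trogocytic libraries, with Cdx1 at 0 throughout. The part of any of these cells in the levels of the segments was not tested.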

How the data were processed

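Polyadenylated RNA was measured in 8 co-cultures, 4 trogocytic and 4 non-trogocytic, grouped by the labels, with paired reads of 100 bp per the labels' protocols. Per the submitters' processing notes, the tools included StringTie 1.3.3, HISAT2 and DESeq version 2, and the builds were mm10 and GRCm38. For the annotation release, the strand setting and reads with several matches, nothing is stated in those sources. Per the file headers, the deposited tables hold coverage, FPKM and TPM per gene. In the authors' TPM every library has an equal sum. The deposited FPKM served as an alternative unit. The deposited coverage, the unscaled mean read depth over a gene, gave the aligned bases and the estimated reads. No read counts were analysed here, so no counting interval is given.

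Rows were summed per gene ID. Genes with at least 1 TPM in 4 libraries (11433) were tested two-sided on log2(TPM + 1) by limma 3.58.1 in R 4.3.3, using a mean-variance trend. P-values were adjusted over all of them (Benjamini-Hochberg), and genes were called at an adjusted p below 0.05. This scale understates the change of low genes. Correlations used exact two-sided permutation over pairings of the 8 libraries (Python 3.11.15, scipy 1.17.1). The limma step was tested on simulated data before use. It called 10.2% of simulated log2 changes of 1, 47.8% of changes of 2 and 86.2% of changes of 3. A member that did not pass may therefore still differ between the groups. Segments were matched by gene ID to GENCODE M21, which also gave the sequences; 49035 of 52636 IDs matched with version.

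Described by name were Trbc1, Trbc2, all Trbd and Trbj members, the 12 Trbv members with the highest mean or an unadjusted p below 0.05, Trac, Cd3d, Cd3e, Cd3g, Cd247, Ptprc, the 5 genes (mean of at least 5 TPM) most like Trbc1 and Trbc2, and the 2 highest members of each gene list. Other members named as examples were chosen after their values were seen. Members and lists were chosen with earlier results of these data known. Alternatives covered unit, pseudocount, scaling, filter, trend, replicate block, detection limit, and each library left out. Dropping replicate 1 of each group, and the J share without Trbj1-4 and Trbj1-6, were chosen after seeing the data.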

Additional observations from a re-analysis of the deposited data

Results flagged for a closer look

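Of 88 sets of 4 libraries checked (58 of a segment within a group and 30 of another gene, a sum or a share), 9 had 1 library far from the other 3, and chance gives about 1 in 20, or 4.4. The trogocytic libraries that stood apart were replicate 4 for Trbv15 (26.1 TPM, the others at 0 to 4.13) and Trbv4 (17.4 TPM, the others at 0) and replicate 1 for Trbj1-2 (6.18 TPM, the others at 0). The non-trogocytic libraries that stood apart were replicate 1 for Trbj1-1 (27.5 TPM, the others at 0 to 2.19) and Trbj1-3 (9.51 TPM, the others at 0), replicate 2 for Trbv2 (3.71 TPM) and Trbv17 (1.76 TPM), and replicate 3 for Trbv12-1 (14.7 TPM) and Trbj2-2 (2.42 TPM), with the others at 0. A segment listed above 0 in 1 library of 4 is marked by this rule whatever its level.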

How the results depend on the processing

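Of 324 alternatives, 270 kept the direction and the side of the threshold, or stayed within the spread, 25 no longer passed, 1 newly passed, 25 moved by more than the spread or 1.5 times, and 3 reversed. No member was called under any of the 16 settings of the limma test. The 6 genes called of all tested became 1 without the mean-variance trend, 1 with no filter, 0 without the first replicates of both groups, and 0 to 3 without 1 library in turn. Deviations from the group means had correlations of 0.235, 0.0054, 0.0623 and -0.0932 between libraries of the same replicate number. Between libraries of different number they were -0.214 to 0.166. Replicate 1 lay above that range and replicates 2, 3 and 4 within it, so a pairing by number was neither shown nor excluded. A replicate block left 0 genes called and 0 members.
The 15 correlated pairs became 3 with a pseudocount of 0.1, 3 as ratios to Ptprc, 0 with the group means taken out, 0 without the first replicates, and 0 to 15 without 1 library in turn. Among segments above 0 in at least 7 libraries, 7 of 9 had a higher r to Trbc2. The fold change of Cd3e was -0.35 without non-trogocytic replicate 4 (-0.35 to 1.12 over the libraries left out). That of Trbj1-6 was -0.0084 without non-trogocytic replicate 1 (-0.0084 to 0.42 over the libraries left out) and -0.032 without the first replicates. The difference in summed V level was 62.0 TPM, and 233 as TPM times length divided by the read length of 100 bases. As a ratio to Ptprc, which puts 1 denominator on both sides, Trbj1-6 had r = 0.95 to Trbc1. Depth limits the D, J and V levels most, with a median of 2.90 estimated reads (zeros included) in the 12 J segments other than Trbj1-4 and Trbj1-6.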

Other observations

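Of 7905 genes with a mean of at least 5 TPM, those with the highest r to Trbc1 over the 8 libraries were Cstf1, an mRNA cleavage factor subunit (r = 0.94), the noncoding gene 1700020I14Rik (0.94), the cilia protein gene Cfap20 (0.94), Mfsd6 (0.93) and Zscan4d (0.92). Those with the highest r to Trbc2 were Inpp4b, a phosphoinositide phosphatase (0.97), Lztfl1 (0.97), the adhesion molecule Vcam1 (0.96), Maml2, a coactivator of Notch signalling (0.95), and Zc3h12d (0.95). Trac ranked 56th and Cd3e 154th to Trbc2, and 2873rd and 4569th to Trbc1. These ranks were picked from many genes over 8 libraries and are a description.

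With Trbj1-4 and Trbj1-6 left out, the Trbj1 share of all J signal was 22.9%, 14.6%, 31.8% and 20.7% in the trogocytic libraries, against 34.8%, 11.2%, 28.4% and 36.4% in the non-trogocytic ones.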
